A study of Mus musculus with 22 samples.

Results

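Cdx1, Cdx2, Hnf4a, Hnf4g, Klf4, Klf5 and Gata6 encode transcription factors that give the gut epithelium its identity and guide its maturation, and their mRNA was followed through 6 cell types of the mouse colon crypt. These 7 genes, of 24421 counted, were taken by name. RNA-seq was done on 22 libraries of sorted colon cells from wild-type male C57BL/6N mice aged 5 to 7 weeks, with no treatment. All cells were live, Epcam+, Cd31- and Cd45-. The cell types were stem cells (Stem, 3 libraries, Cd44 highest, Cd24 low, Ckit-), absorptive progenitors (AbsPro, 3 libraries, Cd44 medium to high, Cd24 low, Ckit-), and SecPDG (4 libraries, Cd44 high, Cd24 medium, Ckit medium), a gate that by the study's account is mainly secretory progenitors with deep crypt secretory cells, and may hold a few goblet cells. Further down the lineages came tuft cells (5 libraries, Ckit+, Cd24 high), enterocytes (5 libraries, Cd44 low or absent, Cd24-) and enteroendocrine cells (EECs, 2 libraries, Cd44 low or absent, Cd24+). On GRCm38 the genes lie at chr18:61018862-61036199 (Cdx1, minus strand), chr5:147300805-147307270 (Cdx2, minus), chr2:163506808-163572910 (Hnf4a, plus), chr3:3508030-3658052 (Hnf4g, plus), chr4:55527143-55532466 (Klf4, minus), chr14:99298691-99315036 (Klf5, plus) and chr18:11052064-11085635 (Gata6, plus). By the study's methods the replicates came from independent mice and sorts, and except in Stem and AbsPro several mice were pooled for a library.

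CDX1 and CDX2 are homeobox factors that specify intestinal rather than gastric epithelium, and loss of CDX2 is a classic step away from intestinal identity. HNF4α and HNF4γ are nuclear receptors of close sequence that drive lipid handling and brush border genes of enterocytes. KLF4 and KLF5 are zinc finger factors that bind similar GC-rich sites and are known for opposed places in the crypt, KLF5 in dividing cells at the base and KLF4 in cells that leave the cycle and in goblet cells. GATA6 is the GATA factor of the large intestine epithelium and is linked to crypt proliferation.

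The gene count total of a library lay between 4122122 and 22462518. Totals were lowest in enterocytes (5950619 to 12966128) and EECs (4122122 and 13132315), where reads outside annotated genes were also most frequent (66.8% to 83.1% and 64.5% to 89.7% of uniquely mapped reads, elsewhere 40.9% to 68.0%). A normalized count here is the raw count over the library's total and TMM factor, put on the scale of the mean library. Lists of stem cell, tuft and EEC markers followed the labels, and those of enterocyte and goblet markers did so only in part. The 4 stem cell genes Lgr5, Smoc2, Axin2 and Ascl2 summed to 9187 to 12953 normalized counts per Stem library and to at most 5796 elsewhere, the 4 tuft genes to 24072 to 64918 in tuft cells and to at most 7832 elsewhere, and the 4 EEC genes to 630671 and 1811123 in EECs and to at most 28559 elsewhere. The 5 enterocyte genes summed to 49293 to 71599 in enterocytes, but also to 65568 to 100934 in AbsPro and to 22124 and 138827 in EECs. The 6 goblet genes led in SecPDG (678193 to 3102425) and were close to that in the tuft gate (690291 to 1116171). In bulk libraries, fewer cells of a type and less RNA of a gene per cell cannot be told apart.

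Of the 7 factors, Klf4 alone was lowest in stem cells and higher in every other cell type by its mean, whereas Cdx1, Cdx2, Klf5, Hnf4a and Gata6 were at their highest in stem cells or in the early progenitors AbsPro and at their lowest in enterocytes or EECs. Hnf4g had the same extremes but stayed close to its stem cell level in enterocytes. In a test for any difference among the 6 cell types all 7 genes passed, at an adjusted p between 2.44e-06 for Cdx2 and 0.00676 for Klf5, where 34.3% of all genes were called. A gene was called where edgeR's quasi-likelihood F test over 22781 genes gave an adjusted p (Benjamini-Hochberg) below 0.01 and its mean reached 50 normalized counts. All 7 factors reached that mean, but only 13381 of the genes tested did. Shares over all genes are thus smaller than shares over the genes that could be called. With DESeq2, 6 of the 7 genes passed the test for any difference.

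**Figure D1:**
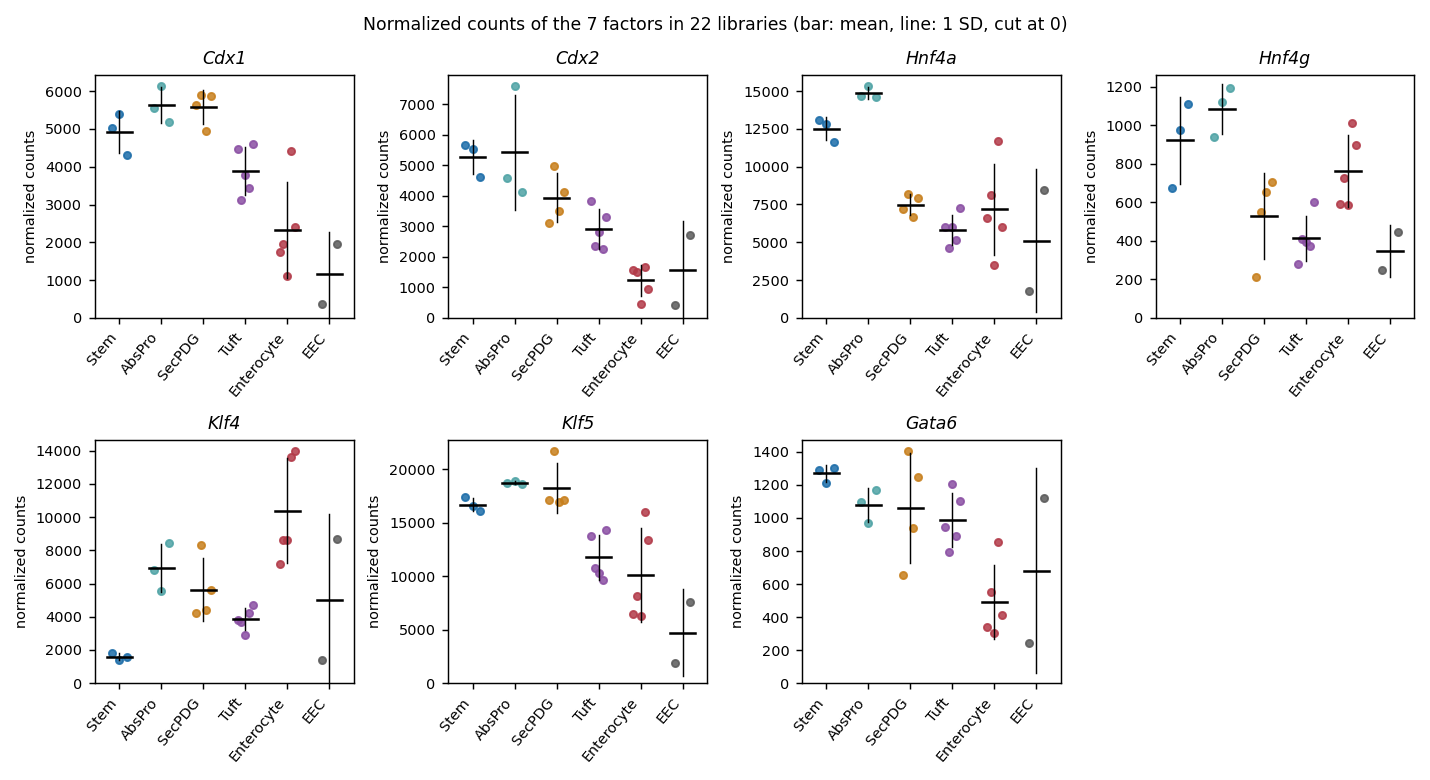
Normalized counts (y axis) of each factor in the 22 libraries, by cell type (x axis). Each point is a library, the bar is the mean and the vertical line 1 SD. Klf4 spans 1392 to 1835 in Stem and 7187 to 13959 in enterocytes, while both EEC points lie far apart for most genes.

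Set per kilobase of exon, so that genes can be compared, Klf5 was the most abundant of the 7 in stem cells, at 345 ± 12.97 CPM per kb (SD, n = 3). Hnf4a (199 ± 11.9), Cdx1 (194 ± 21.9) and Cdx2 (161 ± 17.4) followed within a narrow range. Klf4 (36.5 ± 5.10), Hnf4g (28.7 ± 6.98) and Gata6 (27.2 ± 1.05) were far lower. In enterocytes this order was different, with Klf4 at 237 ± 72.0 and Klf5 at 208 ± 90.7 CPM per kb (SD, n = 5), which differ by less than their spread, while Cdx2 had a mean of 37.5 ± 15.6. The level of Klf4 per length was above that of 91.1% of 24053 genes in stem cells and above that of 99.5% in enterocytes.

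**Figure D2:**
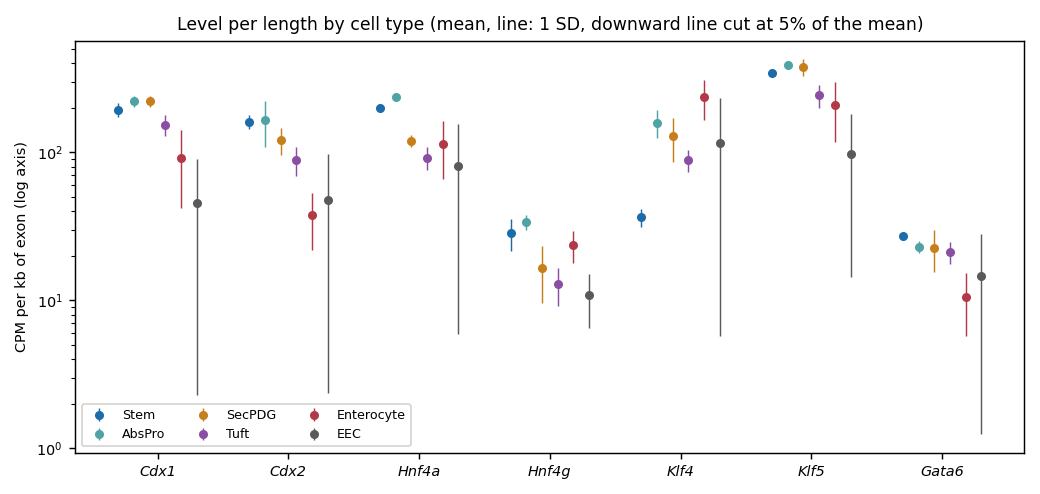
Mean level per length, in CPM per kilobase of exon on a log axis, of each factor (x axis) in each cell type (colour), with a line of 1 SD over libraries. Klf5 leads in Stem at 345, and Klf4 moves from 36.5 in Stem to 237 in enterocytes.

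Cdx1 and Cdx2 were compared first. Cdx1 had 5034, 5401 and 4311 normalized counts in the Stem libraries and 5564, 6136 and 5194 in AbsPro. It had 5626, 5895, 4941 and 5884 in SecPDG, and 4472, 3126, 3793, 3449 and 4615 in tuft cells. These cell types lay near each other, and 3 of the tuft libraries were below every library of the other 3. In enterocytes the values were 1734, 1948, 1117, 4426 and 2397, and in EECs 363 and 1950, so that a single enterocyte library reached into the range of stem cells and neither EEC library did.

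Cdx1 was lower in enterocytes than in stem cells by 1.08 ± 0.35 on the log2 scale (SE), at 2324 ± 1262 against 4915 ± 554 normalized counts (SD, n = 5 and 3), with an adjusted p of 0.00718 from edgeR. All 5 enterocyte libraries were below the Stem mean. This call sat near its threshold and was lost in 10 of 33 alternatives. The DESeq2 Wald test gave an adjusted p of 0.0272. From edgeR it was 0.0162 with the size factors of DESeq2 and 0.023 with upper quartile factors. It was 0.0362 with counts less background, 0.0164 with the 2 cell types alone and 0.021 with the earlier edgeR method. The call was also lost without Stem 1 (0.0222), Enterocyte 2 (0.0191), Enterocyte 3 (0.0264) or Enterocyte 5 (0.0102). Against AbsPro the decrease in enterocytes was 1.27 ± 0.35 (edgeR adjusted p = 0.00294), with no overlap between libraries. That call was lost without AbsPro 2 (0.0171) or Enterocyte 3 (0.0123), with counts less background (0.0208) and with the earlier edgeR method (0.0165).

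Cdx2 had 5664, 5515 and 4613 normalized counts in Stem, and 4569, 7589 and 4119 in AbsPro. SecPDG had 3120, 4974, 3510 and 4131, and tuft cells had 3819, 2364, 2809, 2270 and 3314. Its level in enterocytes was 1567, 1501, 460, 1654 and 942, all below every library of the 4 cell types just named. Cdx2 fell in enterocytes by 2.10 ± 0.36 on the log2 scale against stem cells, a 4.30-fold lower level (edgeR adjusted p = 5.86e-06), and by 2.15 ± 0.36 against AbsPro (edgeR adjusted p = 1.48e-05). Both calls held under every one of the 33 alternatives. In tuft cells the difference from Stem was -0.85 ± 0.35 without overlap of libraries, and it did not pass the test (edgeR adjusted p = 0.0537).

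In EECs both genes were called lower than in stem cells, Cdx1 by 2.04 ± 0.49 (edgeR adjusted p = 0.000607) and Cdx2 by 1.71 ± 0.48 (edgeR adjusted p = 0.00309) on the log2 scale. With Stem and EECs fitted alone neither call was kept (edgeR adjusted p = 0.019 for Cdx1 and 0.0433 for Cdx2). The Cdx2 call was also lost with the size factors of DESeq2 (0.0108) and with the earlier edgeR method (0.0121). Cdx2 was at 411 and 2708 normalized counts in the EEC libraries. The lower value was EEC 1 for both genes, the library with the fewest counts and the most reads outside genes. Without EEC 1 Cdx1 still fell by 1.502 (edgeR adjusted p = 0.00561) and the difference of Cdx2 was -1.13, which did not pass (edgeR adjusted p = 0.0507). Without EEC 2 the decreases were far larger, 3.76 for Cdx1 and 3.68 for Cdx2. Cdx1 was also lower in EECs than in SecPDG, by 2.22 ± 0.48 (edgeR adjusted p = 0.000179), a call kept under every alternative, with a difference of -1.73 without EEC 1 and -3.95 without EEC 2.

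The balance of the CDX factors was read within each library, as the ratio of Cdx1 to Cdx2 counts, which does not depend on the scaling between libraries. The geometric mean of that ratio was 0.934 in Stem and 1.07 in AbsPro. It reached 1.44 in SecPDG, 1.35 in tuft cells and 1.88 in enterocytes, and EECs had 0.798. Stem libraries ranged from 0.889 to 0.979, and every SecPDG (1.19 to 1.80), tuft (1.17 to 1.52) and enterocyte library (1.11 to 2.68) was above them. The difference from Stem on the log2 scale was 0.62 in SecPDG, 0.53 in tuft cells and 1.01 in enterocytes. The exact two-sided permutation p was 0.0571, 0.0357 and 0.0357, the smallest that these group sizes allow. Over the 27 ratio comparisons made, none passed after Benjamini-Hochberg adjustment (0.193, 0.161 and 0.161 for these from the exact permutation test), and 6 had an unadjusted p under 0.05.

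Hnf4a had 13064, 12812 and 11659 normalized counts in Stem and 14681, 15347 and 14591 in AbsPro. In SecPDG it had 7192, 8169, 6654 and 7953, and in tuft cells 5981, 4594, 5983, 5160 and 7256. The 9 libraries of SecPDG and tuft cells were thus all below the 6 of Stem and AbsPro. Enterocyte libraries lay apart from each other, at 6583, 8096, 3518, 11679 and 6008, and EECs had 1756 and 8434.

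As fitted, no comparison of Hnf4a passed the threshold, although the values of several did not overlap. The difference from Stem was -0.74 ± 0.39 in SecPDG (edgeR adjusted p = 0.338), -1.11 ± 0.37 in tuft cells (0.0202 by the same test) and -1.28 ± 0.50 in EECs (0.0299). Against AbsPro it was -0.99 ± 0.39 in SecPDG (edgeR adjusted p = 0.161) and -1.05 ± 0.37 in enterocytes (0.0167 by the same test). These results depended on the setting. The tuft difference was called in 13 of the 33 alternatives, with an adjusted p from 7.15e-05 to 0.0585, the EEC difference in 8 (4.28e-05 to 0.169), that of enterocytes against AbsPro in 11 (2.31e-05 to 0.123) and that of SecPDG against AbsPro in 5, DESeq2 among them (0.00013 to 0.357). Leaving out a single library made the tuft call with AbsPro 1, AbsPro 3, Enterocyte 1, EEC 1 or EEC 2, and the EEC call with AbsPro 1, AbsPro 3, Tuft 4, Enterocyte 1 or EEC 2. It made the enterocyte call against AbsPro with Stem 2, Stem 3, AbsPro 1, AbsPro 3, Tuft 4, Enterocyte 1, Enterocyte 4 or either EEC library, and the SecPDG call with EEC 1. In EECs against Stem, Hnf4a was at -0.74 without EEC 1 and at -2.84 without EEC 2.

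Hnf4g was counted at much lower numbers, 674, 977 and 1112 in Stem, 941, 1120 and 1192 in AbsPro, and 211, 548, 653 and 707 in SecPDG. In tuft cells it had 281, 409, 394, 376 and 602, in enterocytes 591, 729, 588, 1011 and 896, and in EECs 250 and 444. Hnf4g was lower in tuft cells than in Stem by 1.14 ± 0.31 on the log2 scale, a 2.21-fold lower level with no overlap (edgeR adjusted p = 0.00481), and lower in EECs by 1.37 ± 0.44 (edgeR adjusted p = 0.00867). The tuft call was lost without Stem 2 (0.0131), Stem 3 (0.0165), Tuft 1 (0.0147), Tuft 2 (0.0116) or Tuft 3 (0.0119). It was also lost with counts less background (0.0142) and with the earlier edgeR method (0.0124). The EEC call was lost without EEC 1 (0.0366) and also without Tuft 2 (0.0104) or Enterocyte 2 (0.0105), and with each of the other scalings, counts less background, 2 cell types alone, the earlier edgeR method and DESeq2 (-0.72, adjusted p = 0.0526 with DESeq2). In SecPDG the difference from AbsPro was -1.03 ± 0.32 with no overlap and did not pass (edgeR adjusted p = 0.0397), and SecPDG 1 was the lowest library.

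Hnf4g reads were a small part of the reads of both receptors. The geometric mean ratio of Hnf4g to Hnf4a counts was 0.0722 in Stem, near that in AbsPro (0.0726), SecPDG (0.0645) and tuft cells (0.0701), and 0.112 in enterocytes and 0.0870 in EECs. The highest library was an enterocyte library at 0.168. Every enterocyte library (0.0867 to 0.168) was above every AbsPro library (0.0642 to 0.0818), a log2 difference of 0.62 with an exact permutation p of 0.0357 before and 0.161 after adjustment.

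Hnf4a has a pair of promoters, which give proteins with different N-terminal ends. The downstream one, P1, is known from adult liver and differentiated gut cells, and the upstream one, P2, from embryonic tissue, pancreas and crypt cells. Their starts lie 40298 bases apart on the plus strand of chromosome 2, and the sequences just before them are shown because the use of the first exons behind them differed between cell types. They are RefSeq promoter windows on GRCm38.p6, ended before the first base annotated as transcribed, and capitals mark CG dinucleotides.
Hnf4a upstream promoter (P2), chr2:163506607-163506807, plus strand: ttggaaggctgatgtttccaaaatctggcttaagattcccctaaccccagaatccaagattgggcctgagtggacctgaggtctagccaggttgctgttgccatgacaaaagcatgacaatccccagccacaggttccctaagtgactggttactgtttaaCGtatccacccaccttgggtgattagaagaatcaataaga
Hnf4a downstream promoter (P1), chr2:163546905-163547154, plus strand: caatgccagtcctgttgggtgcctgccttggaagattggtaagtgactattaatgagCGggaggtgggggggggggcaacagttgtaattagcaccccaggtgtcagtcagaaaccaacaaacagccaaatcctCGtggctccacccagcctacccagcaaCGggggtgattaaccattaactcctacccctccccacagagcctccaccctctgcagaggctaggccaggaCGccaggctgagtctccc
The upstream window held 1 CG in 201 bases and 47.3% G and C, and the downstream one 4 in 250 bases and 57.6%. On either strand, neither window held the HNF4 motif letters CAAAGTCCA, which 0.38% of 32851 promoter windows of 250 bases hold. The same was true of the CDX motif letters TTTATNG (9.81% of windows). It was also true of the GATA motif letters AGATAA (9.99%) and the KLF motif letters GGGNGTGG (15.9%), and of the TATA box letters TATAAA (12.4%). This says only that these letters are not in these windows.

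The authors' tables of local splicing variation hold 1 pooled expected share per junction and cell type, with no value per library, so no error can be given. Into the exon of Hnf4a that starts at base 163551577, the junction from the P2 first exon (ending at base 163506987) took 74.8% in Stem and 98.9% in SecPDG in one table, and 75.7% in Stem and 96.8% in tuft cells in another. The junction from the P1 first exon (ending at base 163547419) took 23.7% in Stem and 0.7% in SecPDG, and 23.1% in Stem and 2.2% in tuft cells. The downstream promoter thus had a share of this junction in stem cells that was larger than in SecPDG or tuft cells by the authors' pooled values. This variation is not listed in the tables of AbsPro, enterocytes and EECs, and what a table lists was decided by the authors in a way not given in the sources used here.

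At the other end of Hnf4a, exon 9 of 10 (chr2:163568887-163569039) was joined to the last exon from either of 2 splice donors 30 bases apart. The longer form adds 10 codons, the insert by which the HNF4α2 isoform is known to differ from HNF4α1. The stretch between the donors is shown because it is what the forms differ by, and the capitals mark the GT that starts the intron when the nearer donor is used.
Hnf4a exon 9, chr2:163569010-163569039, plus strand: GTgagtggccccgacccagggggcaggcag
By the authors' pooled values, the longer form took 66.8% in Stem and 1.3% in EECs, and the shorter form 32.4% and 98.3%. In EECs the pool holds just 2 libraries, of which EEC 1 had 1756 normalized counts of Hnf4a and EEC 2 had 8434.

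**Figure D3:**
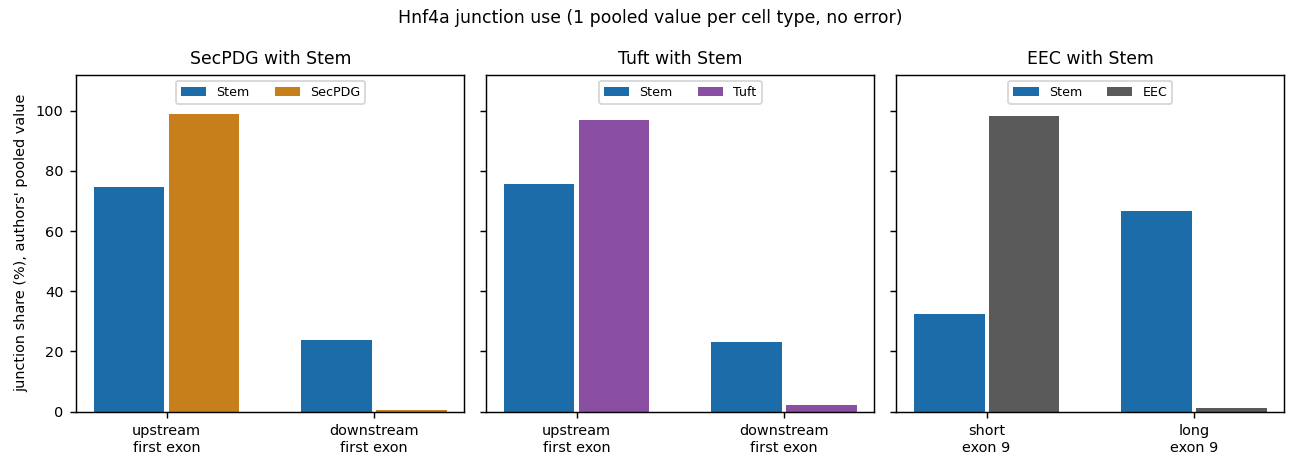
Share of junction reads of Hnf4a (y axis, percent, the authors' pooled value, without error) for the upstream and downstream first exons in SecPDG and tuft cells beside Stem, and for the short and long exon 9 in EECs beside Stem. The downstream first exon stands at 23.7% and 23.1% in Stem and at 0.7% and 2.2% in the other cell types.

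Skipped exon tables list 10 exons in 5 of the factors, 4 in Hnf4g, 3 in Hnf4a and 1 each in Cdx2, Klf4 and Gata6. Mean inclusion per cell type was at least 95% in 37 of 43 values. The lowest was Klf4 in EECs, at a mean of 59.5% over 2 libraries with 24 inclusion and 44 skipping reads in all, where Stem had 76 and 0. Exon chr3:3638059-3638230 of Hnf4g was included at 100.0% in Stem, 87.7% in AbsPro and 85.9% in tuft cells, on 9 and 14 skipping reads, with the lowest library at 63.0% and 57.6%. For Hnf4a, exon chr2:163562519-163562606 was skipped in 30 reads of Stem, all of them in 1 library with 74.4% inclusion, and in 0 of each other cell type. These values rest on few reads and were not tested.

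In the polyadenylation tables, the share of the distal site is given per library for Cdx1, Cdx2, Hnf4a and Klf4. For Cdx2 it was 0.27, 0.32 and 0.31 in Stem and 0.31, 0.34, 0.47, 0.42 and 0.40 in enterocytes, a mean of 0.300 ± 0.026 against 0.388 ± 0.064 (SD, n = 3 and 5), with 1 enterocyte library inside the range of Stem. For Klf4 it was 0.08, 0.15 and 0.10 in Stem and 0.25, 0.14, 0.10, 0.15 and 0.10 in enterocytes, which overlapped. Hnf4a stood at 0.577 ± 0.103 in Stem and at 0.514 ± 0.049 in enterocytes. No test was run on these shares, and the differences named here were small beside the spread in the case of Klf4 and Hnf4a.

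Klf4 and Klf5 went apart along the lineages. Klf4 had 1835, 1392 and 1564 normalized counts in Stem, and 6825, 5577 and 8456 in AbsPro. It had 4226, 8315, 4425 and 5583 in SecPDG, 3833, 3711, 2889, 4243 and 4696 in tuft cells, and 7187, 8605, 8600, 13610 and 13959 in enterocytes. Every library of these 4 cell types was above every Stem library. The EEC libraries were split, with EEC 1 at 1372, below the lowest Stem library, and EEC 2 at 8675.

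Klf4 rose over stem cells in AbsPro by 2.12 ± 0.44 on the log2 scale, a 4.36-fold higher level (edgeR adjusted p = 0.00261), and in SecPDG by 1.82 ± 0.42, or 3.53-fold (edgeR adjusted p = 0.00168). It was the factor called in each of these comparisons, 1 of 7 where 0.588% and 5.00% of all genes were called. In enterocytes the rise was 2.70 ± 0.42, or 6.51-fold (edgeR adjusted p = 1.27e-06), under every alternative. In tuft cells the difference was 1.28 ± 0.40 and narrowly missed the threshold (edgeR adjusted p = 0.0125), and it passed with the other scalings and with DESeq2. It also passed without AbsPro 1, AbsPro 3, Enterocyte 1, Enterocyte 4, EEC 1 or EEC 2. The AbsPro call was lost without Stem 1 (0.0245), Stem 2 (0.0108) or Stem 3 (0.0112) and with the earlier edgeR method (0.0131). The SecPDG call was lost without Stem 1 (0.0109). In these fits the log2 fold change was between 1.93 and 2.23.

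In EECs Klf4 was called higher than in stem cells, by 1.67 ± 0.47 (edgeR adjusted p = 0.00301), although the libraries overlap. Without EEC 1 the difference was 2.28, and without EEC 2 it was -0.22 (edgeR adjusted p = 0.757). The call was also lost without Stem 2 (0.0130) or Stem 3 (0.0109), and with Stem and EECs fitted alone (0.0285). Goblet marker sums were also higher than in Stem (18107 to 31263) in AbsPro (83896 to 250388) and enterocytes (246849 to 711888). By their mean the sums were highest in SecPDG (678193 to 3102425) and tuft cells (690291 to 1116171). There mean Klf4 was lower than in AbsPro and enterocytes. The summed genes did not share 1 pattern. Muc2 had its highest means in tuft cells (713382) and SecPDG (672141). Zg16 had its means in the same order of cell types as Klf4, from 459 in Stem to 16267 in enterocytes. In EECs the sums were 36138 and 63843. Their part in the rise of Klf4 was not tested.

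Klf5 had 17365, 16594 and 16120 normalized counts in Stem, 18733, 18864 and 18587 in AbsPro, and 17088, 21694, 16888 and 17159 in SecPDG. It had 13752, 10756, 10304, 9689 and 14303 in tuft cells and 6492, 8156, 6282, 16009 and 13406 in enterocytes, all below the lowest Stem library, and 1876 and 7593 in EECs. Klf5 fell in EECs by 1.81 ± 0.55 on the log2 scale against Stem (edgeR adjusted p = 0.00564) and by 1.93 ± 0.53 against SecPDG (edgeR adjusted p = 0.00268). Against Stem the call was lost without EEC 1, at -1.30 (edgeR adjusted p = 0.0146), or without Stem 1 (0.0140). Without EEC 2 the difference was -3.16 against Stem and -3.28 against SecPDG, and without EEC 1 it was -1.46 against SecPDG. With the 2 cell types fitted alone neither EEC call was kept (edgeR adjusted p = 0.0471 against Stem and 0.0108 against SecPDG). In tuft cells and enterocytes the differences from Stem did not pass.

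The ratio of Klf4 to Klf5 counts within a library separated the cell types most. It was 0.106, 0.0839 and 0.0971 in Stem, between 0.296 and 0.455 in AbsPro, between 0.247 and 0.383 in SecPDG, and between 0.279 and 0.438 in tuft cells. In enterocytes it was 1.11, 1.05, 1.37, 0.850 and 1.04, and in EECs 0.731 and 1.14. Stem cells thus had far more Klf5 than Klf4 reads, AbsPro, SecPDG and tuft cells stood between, and enterocytes and EECs had nearly as many of each. Both EEC libraries stood with the enterocytes here, although their levels differed.

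The log2 difference of the ratio from Stem was 1.94 in AbsPro, 1.66 in SecPDG and 1.79 in tuft cells. It was 3.49 in enterocytes, an 11.3-fold higher ratio, and 3.26 in EECs. With exact two-sided permutation tests p was 0.1, 0.0571, 0.0357, 0.0357 and 0.2, in each case the smallest the group sizes allow. The enterocyte ratio was also above that of AbsPro, by 1.55 (exact permutation p = 0.0357). After adjustment over 27 comparisons none of these passed, at an adjusted p of 0.161 at best.

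**Figure D4:**
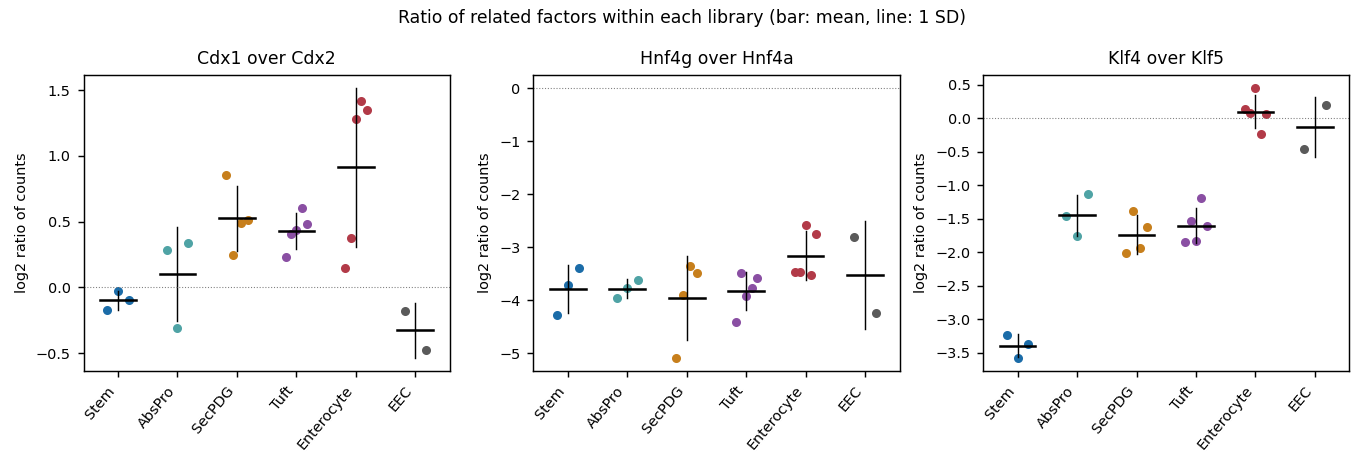
Log2 ratio of counts (y axis) of related factors within each library, by cell type. Each point is a library, the bar is the mean and the line 1 SD. The ratio of Klf4 to Klf5 moves from a mean of -3.39 in Stem to 0.10 in enterocytes with no overlap, while that of Hnf4g to Hnf4a stays between -3.95 and -3.16.

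Gata6 had 1291, 1214 and 1304 normalized counts in Stem, 1097, 969 and 1168 in AbsPro, and 654, 1406, 936 and 1247 in SecPDG. It had 948, 793, 1203, 892 and 1103 in tuft cells, 337, 549, 303, 857 and 413 in enterocytes, and 241 and 1121 in EECs. Gata6 fell in enterocytes by 1.36 ± 0.32 on the log2 scale against Stem, a 2.56-fold lower level (edgeR adjusted p = 0.00058), under every alternative and in 5 of 5 libraries. Against AbsPro the decrease was 1.12 ± 0.33 (edgeR adjusted p = 0.00527), a call that DESeq2 and each of the other scalings lost (adjusted p = 0.0434 with DESeq2). It was also lost with counts less background (0.0636), the 2 cell types alone (0.0148) and the earlier edgeR method (0.0193). The same held without AbsPro 2 (0.0138), Enterocyte 3 (0.0205) or Enterocyte 5 (0.0109). In EECs the difference from Stem was -0.84 ± 0.42 and did not pass (edgeR adjusted p = 0.0942), and without EEC 1 it was -0.34. Without EEC 2 it was -2.40 and passed (edgeR adjusted p = 0.000624), so the call rests on which EEC library is used.

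**Figure D5:**
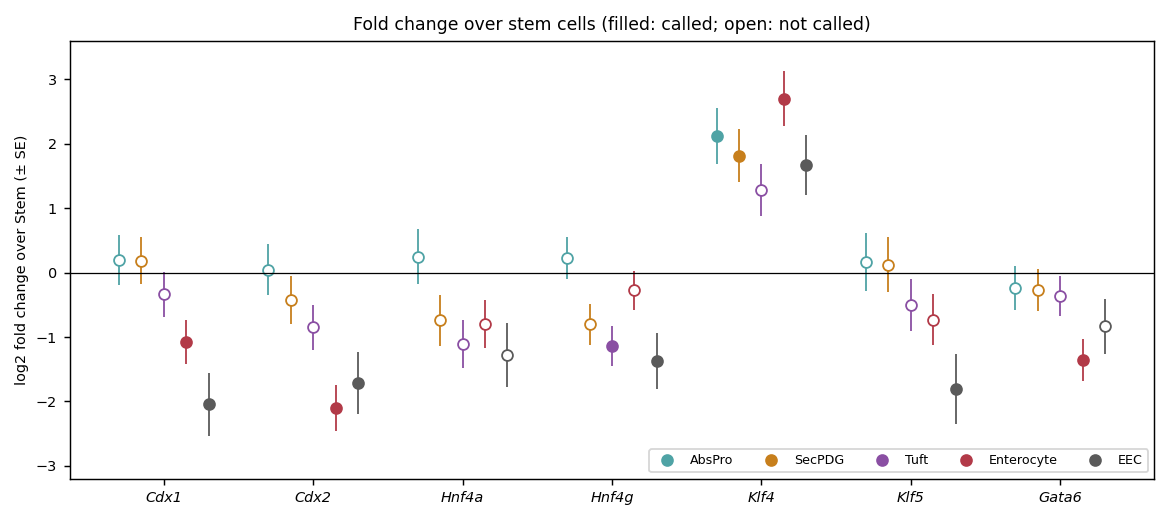
Log2 fold change over Stem (y axis, with SE) of the 7 factors in the other 5 cell types. Filled points are called and open points are not. Klf4 lies above 0 in all 5, at 1.28 to 2.70, and the other factors lie at or below 0 in tuft cells, enterocytes and EECs.

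Counted over the factors, 1 rose in AbsPro and 1 in SecPDG against Stem. In tuft cells 1 fell, where 12.3% of all genes were called. In enterocytes 1 rose and 3 fell, 4 of 7 where 22.7% of genes were called, and in EECs 1 rose and 4 fell, 5 of 7 where 20.4% were called. With Stem and EECs fitted alone none of these EEC calls was kept. The shares are over all 22781 genes tested, and would be larger over the 13381 that reached the mean for a call. The median log2 fold change of the 7 was -0.80 in enterocytes and -1.37 in EECs, beside -0.28 and -0.29 over all genes with a mean of at least 50 normalized counts. These 5 comparisons share the Stem libraries. With the size factors of DESeq2 the median of all genes was 0.34 and 0.47, and 75.4% and 77.2% of called genes were higher instead of 49.5% and 55.2%, so fold changes there are to be read relative to this shift. In AbsPro, SecPDG and tuft cells the TMM median was 0.04, -0.06 and -0.07.

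Between the other cell types, SecPDG and AbsPro differed in 0 of the 7 factors with edgeR, where 3.73% of genes were called, although 2 had an unadjusted p under 0.05 and DESeq2 called 2. Tuft cells and SecPDG differed in 0 with edgeR and DESeq2, and 0 had an unadjusted p under 0.05, where 3.40% of genes were called. Enterocytes had 3 factors lower than AbsPro, Cdx1, Cdx2 and Gata6, where 16.6% of genes were called. EECs had 2 factors lower than SecPDG, Cdx1 and Klf5, where 21.7% were called, and 6 lower without EEC 2. Klf4 in enterocytes was 0.58 above AbsPro on the log2 scale and did not pass.

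Reads of the genes' own mRNA can be told from a general background of reads only in part. An estimate from 1531 genes of families that this epithelium is not known to transcribe came to at most 9.07% of the mean of any factor in any cell type, for Hnf4g in EECs, and to at most 2.14% for Cdx1, Cdx2, Hnf4a, Klf4 and Klf5. These are shares of means over libraries, and EEC libraries differed. Reads of those families came to 7206 CPM in EEC 1 and 641 in EEC 2, and each factor had fewer normalized counts in EEC 1. The background share in EEC 1 was thus larger than the share of the EEC mean.

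Of 23 further genes of these families, 14 had a mean of at least 50 normalized counts, and against Stem 0 were called in AbsPro by edgeR or DESeq2 (2 at an unadjusted p under 0.05 in edgeR). In tuft cells 2 rose and 1 fell, in enterocytes 2 rose and 4 fell, and EECs had 3 higher and 2 lower. Of 23 genes, these counts lie near the shares called over all genes, 12.3%, 22.7% and 20.4% in these cell types. Klf6, an early response zinc finger gene, rose in enterocytes from 641 ± 174 to 3114 ± 783 (edgeR adjusted p = 1.51e-05). Gata2, known from blood cells, was at 0 in every Stem library and at 460 ± 16.2 in EECs (SD, n = 2). In enterocytes it had 65.3 ± 38.1, of which the background estimate makes up 63.3%.

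Among 23 other regulators of the epithelium, 2 rose and 4 fell in SecPDG, 6 fell in tuft cells, 5 rose and 5 fell in enterocytes, and 2 rose and 6 fell in EECs, with 0 called in AbsPro by edgeR (2 at an unadjusted p under 0.05) and 1 by DESeq2. For comparison, edgeR called 22.7% of all genes for enterocytes and 20.4% for EECs. The tuft share was 12.3%, that of SecPDG 5.00% and that of AbsPro 0.588%. Sox9, a factor of the crypt base, fell by 2.71 in enterocytes (edgeR adjusted p = 5.65e-08) and by 3.08 in EECs. The Notch target Hes1 fell by 1.06 in enterocytes and 1.37 in SecPDG, by 1.70 in tuft cells and by 3.90 in EECs. Vdr, the vitamin D receptor, fell by 1.56 in SecPDG, by 1.81 in the tuft gate, by 1.37 in enterocytes and by 1.93 in EECs. Foxa3 rose by 1.60 in SecPDG, and Prdm1, a repressor known from the fetal gut, rose by 3.52 in enterocytes, where 23.1% of its mean is estimated background. Onecut2 was among the genes counted as rising in both enterocytes and EECs. Its estimated background came to 136.2% of its mean in enterocytes and to 80.9% in EECs. For Foxa1, the other gene called higher in EECs, it was 0.9%.

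A further list held 20 intestinal epithelial genes placed downstream of Cdx or Hnf4 factors in earlier work. Of these, 2 rose in AbsPro, 2 rose and 1 fell in SecPDG, and 3 rose and 3 fell in tuft cells. In enterocytes 9 rose and 1 fell, and in EECs 8 rose and 1 fell. Over all genes 0.588% were called in AbsPro, 5.00% in SecPDG and 12.3% in tuft cells. In enterocytes and EECs these shares were 22.7% and 20.4%, and the EEC values rest on 2 libraries that lie far apart. The list shares Krt20 and Slc26a3 with the enterocyte markers and Muc2 with the goblet markers, so it is not independent of the cell type labels. The median log2 fold change of the 20 genes was 1.81 in enterocytes and 1.41 in EECs. Over all genes with a mean of at least 50 normalized counts it was -0.28 and -0.29. Of the 20 genes, 18 reached that mean. In enterocytes estimated background made up 43.7% of the mean of Lct, 24.3% of Mttp, 18.0% of Sis, 11.8% of Alpi, 5.4% of Apoa1 and 0.2% of Krt20. Apoa4 (60.5%) and Fabp1 (43.9%) had a mean under 50 normalized counts over all libraries and so could not be called. Cdx1 and Cdx2 themselves were called lower in both cell types, and their link to these genes was not tested. Krt20, a keratin of surface cells, had 524 ± 149 normalized counts in Stem and 10471 ± 1891 in enterocytes (SD, n = 3 and 5), a log2 rise of 4.32. The chloride exchanger Slc26a3 rose by 2.24 in AbsPro and fell by 3.68 in SecPDG. Muc2, the mucin of goblet cells and a gene known to answer to CDX2, rose by 5.70 in SecPDG and by 5.79 in tuft cells.

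The genes with the pattern most like each factor were found by Pearson's r of log2 CPM over the 22 libraries among 13381 genes, as a description in which depth, library and cell type are shared. For Klf4 these were Zg16 (r = 0.889), a goblet cell lectin that is also among the goblet markers, Clec2h (0.886) and the creatine transporter Slc6a8 (0.881). For Klf5 they were Atp5a1 (0.990), Mdh2 (0.984) and Atp5b (0.981), mitochondrial genes, and for Cdx1 Maea (0.986), Atp5b (0.983) and Ptgfrn (0.980). For Cdx2 they were Capn1 (0.978), B4galnt1 (0.971) and the splicing factor Ptbp1 (0.959), and for Hnf4a Ctsb (0.972), Acadvl (0.964) and Psap (0.964). Hnf4g was most like Stx4a (0.939), Cnih4 (0.929) and Ano9 (0.921), and Gata6 most like Cabin1 (0.962) and Pogz (0.957). Among the 7 factors themselves r was highest for Cdx1 and Klf5 (0.968) and lowest for Cdx2 and Klf4 (-0.20), and Klf4 had an r of at most 0.257 with any other.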

How the data were processed

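RNA-seq counts per gene of 22 libraries were used. The authors aligned reads to mm10 with STAR 2.5.2a, counted them with HTSeq 0.6.1p1 without regard to strand and deposited raw counts. The 5 entries that name no gene, which held 53.9% to 91.6% of all counts in a library, stayed out. The fractions of distal polyadenylation site use (DaPars), inclusion and skipping counts (rMATS) and junction shares (MAJIQ) are deposited values, and the p-values and differences beside them were not used. Libraries stand in those tables without names.

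The test was edgeR's quasi-likelihood F test (version 4.0.16, R 4.3.3), with filterByExpr, TMM and 1 fit of all libraries, tested on simulated data first. Ratios used a pseudocount of 1 and exact permutation tests (scipy 1.17.1). DESeq2 1.42.0, other scalings, no filter, a replicate block, background-subtracted counts, 2 cell types alone and each library left out were alternatives. Promoter sequences are from RefSeq (GRCm38.p6), with 3 of 7 factors matched, and exons from GENCODE vM21. Named genes were the 7 factors, the 3 most alike for each, and called genes of 3 lists. Some of these are not reported here. The members and lists were chosen with earlier results of these data known.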

Additional observations from a re-analysis of the deposited data

Results flagged for a closer look

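Klf5 in SecPDG was set apart by 1 library. SecPDG 2 had 21694 normalized counts, whereas the other 3 had 16888 to 17159, so that the gap made up 94.4% of the range of the group. Of 30 groups of values examined in this way, 1 stood out, and about 1 in 20 would by chance.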

How the results depend on the processing

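Of 17 called fold changes of the factors, 5 kept their call under all 33 alternatives: Cdx2, Klf4 and Gata6 in enterocytes against Stem, Cdx2 in enterocytes against AbsPro, and Cdx1 in EECs against SecPDG. Of 63 fold changes, 12 turned sign somewhere, of which 1 was called, Klf4 in EECs against Stem, at -0.22 without EEC 2 and up to 2.28 without EEC 1. DESeq2 size factors ended the calls of Cdx1 in enterocytes (-0.62) and of Cdx2 (-1.22) and Hnf4g (-0.74) in EECs against Stem, and of Gata6 in enterocytes against AbsPro (-0.59). The cause of these changes was not tested. There were 2 EEC libraries, and EEC 1 had the fewest gene counts of all libraries.

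Counts of called factors that moved by more than 1.5 times are given next. In enterocytes against Stem the change was within that, and 2 instead of 3 were lower with DESeq2 size factors, upper quartile factors, counts less background, 2 cell types alone, the DESeq2 Wald test and the earlier edgeR method. With the earlier edgeR method 0 were higher in AbsPro, 0 lower in tuft cells, 2 lower in EECs (all against Stem) and 1 lower in enterocytes against AbsPro. With the 2 cell types fitted alone, 1 was lower in SecPDG, 1 higher and 3 lower in tuft cells and 0 higher and 0 lower in EECs against Stem, 1 lower in SecPDG against AbsPro and 1 lower in EECs against SecPDG. With counts less background 1 was higher and 0 lower in tuft cells against Stem, and 1 higher and 1 lower in enterocytes against AbsPro. With DESeq2 size factors, upper quartile factors, library totals and the DESeq2 Wald test, 1 was higher and 2 lower in tuft cells against Stem and 1 higher in enterocytes against AbsPro, while in SecPDG against AbsPro 2, 1, 2 and 2 were lower. DESeq2 size factors gave 2 lower in EECs and library totals 2 lower in SecPDG against Stem. At an adjusted p under 0.05, 1 was higher and 2 lower in tuft cells against Stem and 1 lower in SecPDG against AbsPro, and with no filter 2 were lower in tuft cells. With a replicate block 2 were lower in tuft cells against Stem and 1 in SecPDG against AbsPro. The reported fit did not pair libraries across cell types by number. Deviations of same-numbered libraries had a mean correlation of 0.0112 over 44 pairs (-0.397 to 0.503). For different numbers it was 0.0001 over 154 pairs (-0.554 to 0.631). A mean over such mixed pairs cannot tell whether some libraries of different cell types came from the same mice.

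With each library left out in turn, against Stem 0 to 1 were higher in AbsPro, in SecPDG, in EECs and in tuft cells. Tuft cells had 0 to 3 lower. Lower ones in enterocytes numbered 2 to 5, and EECs had 1 to 6. In SecPDG against AbsPro 0 to 2 were lower, in enterocytes against AbsPro 1 to 5, and in EECs against SecPDG 2 to 6. In the test for any difference 5 to 7 passed.

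Over all genes, calls against Stem ran, over the settings that keep every library, from 83 to 455 in AbsPro (134 as reported), and 709 to 2177 in SecPDG (1138). Tuft cells had 1488 to 4592 (2800), enterocytes 3118 to 10016 (5180) and EECs 1460 to 7664 (4650). They ran from 506 to 1648 in SecPDG against AbsPro (849), 1169 to 7358 in enterocytes against AbsPro (3793), 205 to 1886 in tuft cells against SecPDG (774) and 3271 to 7624 in EECs against SecPDG (4947). Leaving out 1 library moved some of these by more than 1.5 times. In AbsPro against Stem the count was 53 without Stem 1, 58 without Stem 3, 68 without AbsPro 3, 361 without EEC 1 and 266 without EEC 2. In SecPDG without EEC 1 it was 1799 against Stem and 1414 against AbsPro, and in tuft cells against Stem 1701 without Stem 2. In enterocytes against AbsPro it was 1999 without AbsPro 2, 2350 without Enterocyte 3 and 6436 without EEC 1. In tuft cells against SecPDG it was 384, 464, 339 and 364 without SecPDG 1 to 4, 486, 414 and 1417 without Tuft 3, 4 and 5, and 1347 and 1389 without EEC 1 and 2.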
